A study of Mus musculus with 18 samples.

Results

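MHC class II loading and processing genes are the genes whose products assemble class II molecules, cut antigen and exchange peptides in endosomes, as opposed to the class II chains that hold the peptide. The 8 genes described here were taken from a fixed list of names, namely Cd74, H2-DMa, H2-DMb1, H2-DMb2, H2-Oa, H2-Ob, Ctss and Ifi30. They were found by gene identifier among the 55487 gene rows of each library, and all 8 passed the filter on low counts, which left 15318 genes. Ciita, the class II transactivator, and H2-Aa, which encodes a class II α chain, served as reference only.

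The mRNA of WEHI-231, a mouse B lymphoma line with the traits of immature B cells, gave 18 libraries in 9 groups of 2. Unmodified parental cells and 2 clones mutant for TFEB, named #A-59 and #B-20, were studied without stimulation (0 h) and 6 or 18 h after the B cell antigen receptor (BCR) was ligated with F(ab')2 fragments against IgM at 10 µg/ml. Each mutant is 1 clone, made with Cas9 and a crRNA to Tfeb and grown from single cells, so that an effect of TFEB and a trait of the clone cannot be told apart. Both libraries of each group stem from independent experiments on the same cells, and p-values measure the spread between them. Values are TMM-scaled CPM, which are counts relative to library size, given with the SD of n = 2 libraries, and a difference is called where edgeR's quasi-likelihood test gave a Benjamini-Hochberg adjusted p under 0.05 over all 15318 genes.

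Class II molecules are built in the endoplasmic reticulum around the invariant chain, which blocks the peptide groove and directs the complex to endosomes. There the invariant chain is cut down to a short fragment, CLIP, which the DM heterodimer exchanges for antigenic peptides, while the DO heterodimer restrains DM in B cells. CIITA, which binds no DNA itself, acts through factors bound to conserved X and Y boxes of the promoters of class II chains, invariant chain and DM. TFEB is a transcription factor of lysosomal genes that binds E boxes.

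The labels were checked first with Tfeb itself, which stood at 79.2 to 99.9 CPM in the 6 parental libraries, at 25.5 to 40.5 CPM in those of #A-59 and at 34.2 to 54.1 CPM in those of #B-20. Library totals ran from 11223588 counts (parental, 18 h, replicate 1) to 29655262, with a median of 19846544. The counts of both libraries of a group differed by more than sampling noise, with a chi-square per degree of freedom over genes of 3.44 to 7.36 in parental cells, 8.32 to 31.3 in #A-59 and 6.53 to 54 in #B-20, highest at 6 h in each clone. The 8 markers of B cells summed to between 6050 and 12600 CPM. The 8 markers of macrophages and dendritic cells, which also use this machinery, summed to 4.67 to 12.2 CPM (parental), 9.75 to 30.4 CPM (#A-59) and 5.96 to 10.8 CPM (#B-20). The 8 T cell markers summed to 7.53 to 22.5 CPM over all libraries, and the 6 plasma cell markers to 157 to 357 CPM. Of the T cell markers only 1, Cd5, passed the filter on low counts, and it made up most of their sum. It was at 12.8 and 16.5 CPM in parental cells at 0 h, where Cd3e was at 2 and 0 counts and Trac at 2 and 1. Cd14 was at 0 in both clones, Lyz2 in #A-59 and Thy1 in parental cells and #B-20. The part of such cells in the differences below was not tested.

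Of the 8 markers of macrophages and dendritic cells 4 passed the filter. In #A-59 1, 2 and 2 of them were called higher than in parental cells at 0, 6 and 18 h and 1, 0 and 0 lower, and in #B-20 1, 1 and 0 were called higher and none lower. The shares of all genes called in these comparisons are given below. Itgam, which encodes the integrin chain CD11b, was at 1.12 and 1.45 CPM in parental cells at 0 h, 7.18 and 9.06 CPM in #A-59 and 2.68 and 3.91 CPM in #B-20. Compared with parental cells it had a log2 fold change in #A-59 of 2.65 ± 0.24 (SE, adjusted p = 2.15e-07), 3.87 ± 0.29 (adjusted p = 8.51e-09) and 1.74 ± 0.20 (adjusted p = 3.61e-06) at 0, 6 and 18 h. In #B-20 it was 1.37 (adjusted p = 0.00185), 1.57 (adjusted p = 0.00421) and -0.29 (adjusted p = 0.358). Csf1r, which encodes the receptor of a macrophage growth factor, was at 7 and 8 counts in parental cells at 6 h, against 57 and 16 in #A-59 (log2 fold change 2.34, adjusted p = 0.00171). Among the plasma cell markers, Jchain, which encodes the joining chain of secreted antibodies, was at 6.33 and 7.0 CPM in parental cells at 18 h, 1.94 and 1.87 CPM in #A-59 and 2.67 and 2.72 CPM in #B-20. It was lower there by -1.81 (adjusted p = 1.68e-05) and -1.31 (adjusted p = 0.000151). Of the 6 plasma cell markers 4 passed the filter. In #A-59 3, 3 and 2 of them were called lower than in parental cells at 0, 6 and 18 h and none higher. In #B-20 1, 2 and 1 were called lower and 0, 0 and 1 higher, so that the list moved in both directions at 18 h. The shares of all genes called are again those given below. In bulk RNA, fewer cells that express a gene and less of its RNA per cell cannot be told apart.

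Promoter sequences (RefSeq, GRCm38.p6, the build of the counts) were available for 7 of the 8 genes, Cd74 not among them. They are shown because CIITA and TFEB are known to act through different boxes. Each line below gives the bases just upstream of a RefSeq transcript start, 5′ to 3′ on the strand of the gene. Capitals mark the core of the Y box (CCAAT, here in its reverse form), a form of the X box (AGNAAC directly followed by NGNTG), a site of interferon regulatory factors (GAAA, any 2 bases, GAAA) or an E box (CACGTG). Both strands were searched over 250 bases before to 50 bases after each start.

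H2-DMb1: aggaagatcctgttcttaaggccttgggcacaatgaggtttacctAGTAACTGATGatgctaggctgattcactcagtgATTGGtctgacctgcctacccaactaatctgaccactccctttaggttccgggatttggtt
H2-DMb2: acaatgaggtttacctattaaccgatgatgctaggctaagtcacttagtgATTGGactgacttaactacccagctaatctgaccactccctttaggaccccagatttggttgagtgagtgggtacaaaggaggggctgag
H2-Oa: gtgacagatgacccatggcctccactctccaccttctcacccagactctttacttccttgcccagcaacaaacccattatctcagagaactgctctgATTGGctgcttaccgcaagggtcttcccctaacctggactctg
H2-Ob: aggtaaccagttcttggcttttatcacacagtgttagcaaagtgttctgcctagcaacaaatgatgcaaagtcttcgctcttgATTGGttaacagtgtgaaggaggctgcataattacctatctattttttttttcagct
Ctss: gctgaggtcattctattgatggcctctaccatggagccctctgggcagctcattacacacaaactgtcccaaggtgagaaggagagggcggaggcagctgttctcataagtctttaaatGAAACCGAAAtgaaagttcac
Ifi30: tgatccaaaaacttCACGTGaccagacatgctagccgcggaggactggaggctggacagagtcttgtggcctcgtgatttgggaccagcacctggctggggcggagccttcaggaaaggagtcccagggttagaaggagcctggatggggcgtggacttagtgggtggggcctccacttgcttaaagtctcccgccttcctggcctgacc

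These windows lie at chr17:34153051-34153190 for H2-DMb1, chr17:34145109-34145248 for H2-DMb2, chr17:34092239-34092378 for H2-Oa and chr17:34238765-34238904 for H2-Ob, all on the plus strand. The starts of H2-DMb2 and of H2-DMa lie inside the spans given for these genes below. The Ctss window is chr3:95526646-95526785 on the plus strand and that of Ifi30 chr8:70766664-70766873 on the minus strand. A Y box core lay in the promoters of all 4 H2 genes shown, with its first base at -61 in H2-DMb1, -90 in H2-DMb2, -43 in H2-Oa and -57 in H2-Ob. For H2-DMa 2 starts were searched, of which the second had a Y box core at -198 and the first matched none of the motifs. The stretches searched for them were chr17:34122582-34122881 and chr17:34125268-34125567. The rest of the H2-DMa span, which has 14 annotated transcripts, was not searched, so that boxes at other starts would not have been seen. CCAAT alone is common and was found in 37.4% of 32851 promoters. The X box form, found in 1.18% of promoters, matched H2-DMb1 only, at -95 and thus upstream of the Y box. Ctss, a protease gene, held the interferon regulatory factor site at -21, which 3.44% of promoters held. Ifi30 was the only one of these 7 with an E box, at -196, as had 7.15% of promoters. Together with the flanking bases it reads as TCACGTG on either strand, a form that overlaps the E box and was found in 3.77% of promoters. H2-Aa had a Y box core at -48 and a cyclic AMP response element (TGACGTCA) at -74, the latter held by 1.79% of promoters. It did not match the X box form, although X boxes are known in promoters of class II chains. A missing match here thus does not show that a promoter lacks an X box. A STAT site (TTCNNNGAA, 8.3% of promoters) was matched in H2-DMb2 at -218. These are matches of letters, and binding was not measured in these libraries.

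The genes differed widely in level. Per kilobase of the longest annotated transcript, the mean level in parental cells at 0 h was 610 CPM for Ifi30 and 482 CPM for Cd74. Ctss followed at 28.5, H2-DMb2 at 23.8 and H2-DMa at 23.7 CPM per kilobase. H2-Oa at 7.93, H2-Ob at 7.81 and H2-DMb1 at 6.45 CPM per kilobase were the lowest. The order depends on the length used. Per kilobase of the mean transcript, Cd74 at 725 stood above Ifi30 at 619, and H2-DMa at 46.4 above H2-DMb2 at 25.9.

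Cd74 encodes the invariant chain (chr18:60803849-60812652, GRCm38). Parental cells held 823 and 983 CPM of it without stimulation, 660 and 731 CPM after 6 h, and 1892 and 1796 CPM after 18 h. In #A-59 it was 826 and 831, then 740 and 678, then 2145 and 1891 CPM. In #B-20 it was 326 and 411, then 278 and 347, then 791 and 779 CPM. All 6 libraries of #B-20 lay below the libraries of the other cells at the same time, while those of #A-59 and parental cells overlapped at each time. Compared with parental cells, the log2 fold change of Cd74 in #B-20 was -1.29 ± 0.12 (SE, edgeR adjusted p = 2.09e-07) at 0 h, which is a 2.45-fold lower level. It was -1.15 (adjusted p = 6.84e-07) at 6 h and -1.23 (adjusted p = 3.14e-07) at 18 h. In #A-59 none of the 3 differences passed, with log2 fold changes of -0.12, 0.03 and 0.13 and 95% intervals that together span -0.39 to 0.40. Over the 9 groups, Cd74 was highest in #A-59 and parental cells at 18 h, whose ranges overlapped, and lowest in #B-20 at 6 and 0 h, whose ranges overlapped as well.

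**Figure D1:**
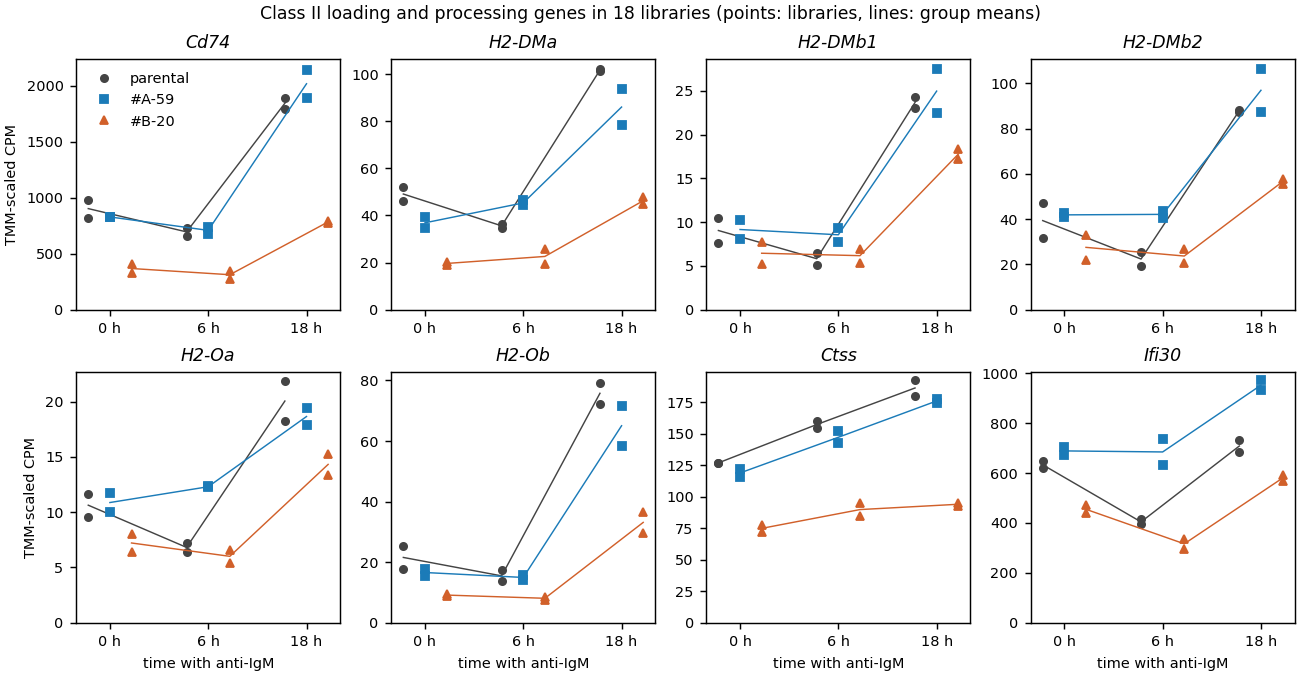
Level of each member in TMM-scaled CPM (y axis, linear, from 0) at 0, 6 and 18 h of anti-IgM (x axis) in parental cells (grey circles), #A-59 (blue squares) and #B-20 (orange triangles), with 1 point per library and lines through the means of n = 2. At 18 h all members stand above their 0 h level in each genotype, and #B-20 is lowest, for example at 791 and 779 CPM of Cd74 against 1892 and 1796 CPM in parental cells.

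H2-DMa and H2-DMb1 or H2-DMb2 encode the α chain and the β chains of DM, the peptide exchanger. H2-DMa (chr17:34119693-34139101) stood at 46.1 and 52.1 CPM in parental cells at 0 h, at 39.2 and 34.5 CPM in #A-59 and at 19.0 and 20.3 CPM in #B-20. At 6 h its level was 34.8 and 36.4 CPM in parental cells, 46.4 and 44.3 CPM in #A-59 and 19.4 and 25.8 CPM in #B-20. At 18 h these values were 101 and 102, 93.7 and 78.3, and 47.8 and 44.7 CPM. The 3 cell lines thus did not overlap at any time, and #A-59 lay below parental cells at 0 and 18 h and above them at 6 h. In #B-20 H2-DMa was lower by a log2 fold change of -1.32 ± 0.13 (SE, adjusted p = 3.01e-07), -0.66 (adjusted p = 0.000599) and -1.14 (adjusted p = 6.97e-07) at 0, 6 and 18 h. In #A-59 it was lower at 0 h by -0.41 ± 0.12 (adjusted p = 0.0222) and higher at 6 h by 0.35 ± 0.12 (adjusted p = 0.0296). The call at 0 h was lost without replicate 2 of either group, and that at 6 h without either parental library or replicate 1 of #A-59. It was also lost with a correction for GC content (log2 fold change 0.23, adjusted p = 0.102) and in a fit of the compared libraries only (adjusted p = 0.0522). H2-DMa overlaps the antisense gene Brd2, and unstranded reads do not separate the pair.

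H2-DMb2 (chr17:34143229-34151553) was the more abundant β chain. Its level was 31.6 and 47.1 CPM in parental cells at 0 h, 40.9 and 42.8 CPM in #A-59 and 22.2 and 32.9 CPM in #B-20. At 6 h it was 19.5 and 25.3, 40.7 and 43.5, and 20.6 and 26.8 CPM, and at 18 h 87.5 and 88.3, 106 and 87.4, and 55.5 and 57.6 CPM, in the same order of cells. #B-20 overlapped parental cells at 0 and 6 h and lay below them at 18 h. H2-DMb2 was higher in #A-59 at 6 h, with a log2 fold change of 0.91 ± 0.20 (SE, adjusted p = 0.00203), and lower in #B-20 at 18 h, by -0.64 ± 0.19 (adjusted p = 0.0213). The latter call was lost when any of the 4 libraries compared, or either library of #A-59 at 6 h, was left out. At 0 h the difference in #B-20 did not pass (log2 fold change -0.51, 95% interval -0.96 to -0.06, adjusted p = 0.0907), but it passed without the filter on low counts (-0.52, adjusted p = 0.000465).

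H2-DMb1 (chr17:34153191-34160229) ranged from 5.16 CPM (parental, 6 h) to 27.5 CPM (#A-59, 18 h) over the libraries. No difference between a clone and parental cells passed for it in the fit over all libraries. In #A-59 at 6 h its log2 fold change of 0.54 had an adjusted p of 0.0526, which became 0.0458 with DESeq2 and 0.0104 without the filter. The log2 fold changes in #B-20 were -0.48 (adjusted p = 0.135), 0.07 (adjusted p = 0.857) and -0.42 (adjusted p = 0.112) at 0, 6 and 18 h, the last passing in a fit of the compared libraries only (adjusted p = 0.0319). Of the 50-base words of H2-DMb1, 31.73% also occur in other genes, mostly in H2-DMb2, and 27.1% of those of H2-DMb2 do, so that reads of the 2 genes may have been split or lost in counting. When the counts of both were summed, no call of H2-DMb2 against parental cells or across time was gained or lost. Within a library the ratio of H2-DMa to H2-DMb2 CPM was 1.11 to 1.78 in parental cells, 0.807 to 1.14 in #A-59 and 0.616 to 0.961 in #B-20. Each ratio of #B-20 lay below each parental ratio, and both ratios of #A-59 lay below both parental ratios of the same time as well. These differences were not tested.

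H2-Oa and H2-Ob encode the chains of DO, the B cell inhibitor of DM. H2-Ob (chr17:34238905-34245908) stood at 17.8 and 25.3 CPM in parental cells at 0 h, 15.4 and 17.8 CPM in #A-59 and 8.84 and 9.42 CPM in #B-20. At 18 h it reached 72.3 and 79.2 CPM, 71.7 and 58.4 CPM, and 36.5 and 29.7 CPM. Over parental cells its log2 fold change in #B-20 was -1.24 ± 0.18 (SE, adjusted p = 5.24e-05) at 0 h, -0.95 (adjusted p = 0.000735) at 6 h and -1.19 (adjusted p = 1.13e-05) at 18 h. In #A-59 none of the 3 differences of H2-Ob passed, the most marked being -0.38 at 0 h (adjusted p = 0.137).

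H2-Oa (chr17:34092379-34095234) behaved otherwise. Its level was 9.58 and 11.7 CPM in parental cells at 0 h, 9.99 and 11.8 CPM in #A-59 and 6.43 and 8.0 CPM in #B-20. At 6 h it was 6.42 and 7.20, 12.4 and 12.3, and 5.41 and 6.60 CPM, and at 18 h 21.9 and 18.3, 19.4 and 17.9, and 15.3 and 13.4 CPM. It was higher in #A-59 at 6 h, with a log2 fold change of 0.85 ± 0.16 (SE, adjusted p = 0.000373). In #B-20 it was lower at 0 h by -0.55 ± 0.16 (adjusted p = 0.0234) and at 18 h by -0.48 ± 0.15 (adjusted p = 0.0245). The call at 0 h was lost with the GC correction (-0.36, adjusted p = 0.155) and without parental replicate 2 or #B-20 replicate 1. That at 18 h was lost without parental replicate 1 or #B-20 replicate 2 and without the filter on low counts (-0.40, adjusted p = 0.0726). The ratio of H2-Ob to H2-Oa CPM in a library ran from 1.86 to 4.34 in parental cells, from 1.15 to 3.70 in #A-59 and from 1.18 to 2.39 in #B-20. H2-Oa shares 17.2% of its words with the antisense gene BC051537, and unstranded reads do not separate the pair.

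Ctss encodes cathepsin S, the protease that trims the invariant chain to CLIP. Its level (chr3:95526786-95556405) was 127 and 127 CPM in parental cells at 0 h, 116 and 122 CPM in #A-59 and 77.6 and 72.1 CPM in #B-20. At 6 h it was 160.0 and 155, 142 and 152, and 84.7 and 94.8 CPM, and at 18 h 193 and 180, 178 and 174, and 93.0 and 95 CPM. Every library of #B-20 lay below every library of the other cells, irrespective of time. The log2 fold change in #B-20 was -0.76 ± 0.08 (SE, adjusted p = 1.74e-06), -0.81 (adjusted p = 4.97e-07) and -0.99 (adjusted p = 4.1e-08) at 0, 6 and 18 h. In #A-59 it was -0.09, -0.10 and -0.08, and none passed.

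Ifi30 encodes GILT, the thiol reductase that opens disulfide bonds of antigens. Its level (chr8:70762773-70766663) was 647 and 620 CPM in parental cells at 0 h, 704 and 675 CPM in #A-59 and 438 and 472 CPM in #B-20. At 6 h it was 415 and 394, 736 and 633, and 296 and 337 CPM, and at 18 h 732 and 686, 971 and 934, and 568 and 592 CPM. The 3 cell lines did not overlap at any time, with #A-59 highest and #B-20 lowest. In #A-59 Ifi30 was higher, with a log2 fold change at 6 h of 0.76 ± 0.09 (SE, adjusted p = 2.24e-06) and at 18 h of 0.43 ± 0.09 (adjusted p = 0.00177). In #B-20 it was lower by -0.48 (adjusted p = 0.000644), -0.35 (adjusted p = 0.00611) and -0.29 (adjusted p = 0.0221) at 0, 6 and 18 h. The call at 6 h was lost without replicate 1 of either group. Without the filter on low counts the difference at 18 h did not pass (-0.21, adjusted p = 0.192), nor did it without any 1 of the 4 libraries compared. The macrophage markers Itgam (6 and 18 h) and Csf1r (6 h) were also higher in #A-59, at the levels given above. Of the 4 markers of macrophages and dendritic cells tested, 2 were called higher there at 6 h and 1 lower at 0 h. Itgam was higher in #A-59 at 0 h too, where Ifi30 was not called. In #B-20 Itgam was higher at 0 and 6 h, where Ifi30 was lower. The part of these markers in the rise of Ifi30 was not tested. Ifi30 shares 13.54% of its words with the antisense genes Gm64126 and 6330537M06Rik, which unstranded reads do not separate from it.

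In #B-20 6 of 8 members were called lower at 0 h, 5 at 6 h and 7 at 18 h, and none higher. The median log2 fold change of the 8 was -0.66, -0.51 and -0.81, against 0.00, 0.01 and 0.01 over all genes tested. Of all genes 10.7%, 12.5% and 12.6% were called lower at these times, and 7.08%, 11% and 10.5% higher. At 18 h both #B-20 libraries lay below both parental libraries for all 8 members, as they did for 30.7% of all genes. In #A-59 1 member was lower at 0 h (H2-DMa), 4 were higher at 6 h (H2-DMa, H2-DMb2, H2-Oa and Ifi30) and 1 was higher at 18 h (Ifi30). For #A-59 7.33%, 17% and 9.44% of all genes were called lower at these times and 8.23%, 16.6% and 7.76% higher. The median of the members in #A-59 was -0.04, 0.45 and -0.0021, against -0.01, -0.01 and -0.02 over all genes.

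The fold changes of #B-20 moved with GC content across genes, with a Spearman rho of -0.344 at 0 h, -0.271 at 6 h and -0.062 at 18 h. In #A-59 rho was 0.05, 0.196 and -0.006. The transcripts of 6 members had a GC content of 53.4% to 56.5%, above the median of 49.1% of the genes tested, while those of Ctss and H2-Ob were at 45.6% and 45.8%. With the GC correction the calls of Cd74, H2-DMa, H2-Ob, Ctss and Ifi30 in #B-20 held at all 3 times.

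**Figure D2:**
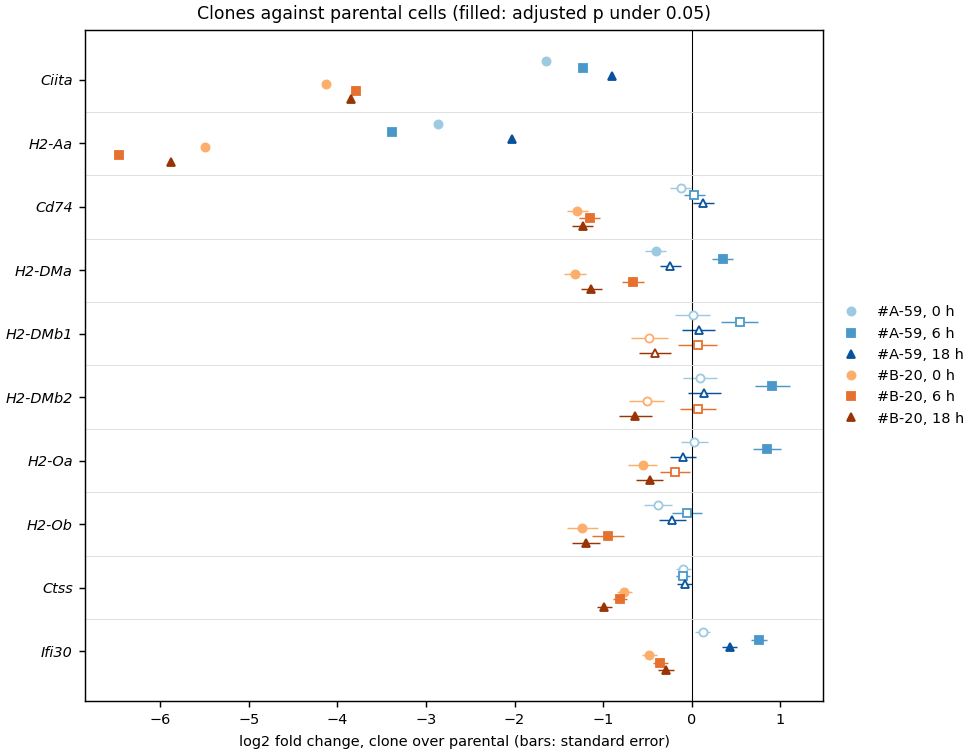
Log2 fold change of each clone over parental cells (x axis) for Ciita, H2-Aa and the 8 members (y axis) at 0, 6 and 18 h, in blue for #A-59 and orange for #B-20, with filled symbols for an adjusted p under 0.05 and bars for the standard error (members only). Cd74 of #A-59 sits at -0.12 to 0.13 while its Ciita sits at -1.64 to -0.90, and Cd74 of #B-20 sits at -1.29 to -1.15 while its Ciita sits at -4.13 to -3.79.

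The clones were also compared with each other. At each of the 3 times, both #B-20 libraries lay below both #A-59 libraries for all 8 members, as they did for 29.5%, 29.9% and 30.2% of all genes at 0, 6 and 18 h. 7 of 8 members were called lower at each time, against 10.1%, 16.6% and 12.6% of all genes. The member that did not pass was H2-DMb1 without stimulation (adjusted p = 0.132) and also after 6 h (0.0997), both of which passed without the filter (0.0386 and 0.0264), and H2-Oa at 18 h (adjusted p = 0.0617). Calls close to the threshold were those of H2-DMb2 at 0 h and H2-DMb1 at 18 h (adjusted p = 0.0499 each). They were lost without 3 of the 4 libraries compared, without some libraries of other groups, with the GC correction and with DESeq2 size factors. The calls of H2-Oa at 0 h and H2-DMb2 at 6 and 18 h also depended on single libraries compared. Without 1 library their log2 fold changes ranged from -0.76 to -0.44, -1.03 to -0.66 and -0.92 to -0.63. The GC correction also ended the calls of H2-Oa at 0 h (adjusted p = 0.148) and H2-DMb2 at 6 h (adjusted p = 0.0541). The widest gaps were those of Cd74, at -1.17, -1.18 and -1.36, and of Ifi30 at 6 h, at -1.11 ± 0.09 (SE, adjusted p = 4.19e-08).

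Set beside the reference genes, the members changed much less. Ciita stood at 24.9 and 28.3 CPM in parental cells at 0 h, at 7.59 and 9.63 CPM in #A-59 and at 1.47 and 1.55 CPM in #B-20. H2-Aa stood at 68.2 and 101, 9.38 and 14.1, and 1.67 and 2.05 CPM. In #A-59 Ciita was 3.12-fold, 2.34-fold and 1.87-fold lower at 0, 6 and 18 h and H2-Aa 7.29-fold, 10.5-fold and 4.08-fold lower, each with an edgeR adjusted p of at most 0.000149. In #B-20 Ciita was 17.5-fold, 13.8-fold and 14.4-fold lower and H2-Aa 45.2-fold, 88.4-fold and 59.1-fold lower, with an adjusted p of at most 2.1e-09. Cd74 over H2-Aa, as a ratio of CPM, was 5.94 to 12.1 in the parental libraries, 33.3 to 88.1 in those of #A-59 and 172 to 298 in those of #B-20. Cd74 over Ciita was 21.2 to 35.7, 42.0 to 109 and 116 to 265. Levels can also be set side by side across times. #B-20 at 18 h had 4.83 and 6.72 CPM of Ciita, below the 24.9 and 28.3 CPM of parental cells at 0 h, while H2-DMa in the same libraries was at 47.8 and 44.7 CPM against 46.1 and 52.1 CPM. The other members did not match in this way. Cd74, Ctss and Ifi30 lay below parental cells at 0 h, and H2-DMb1, H2-DMb2, H2-Oa and H2-Ob above them.

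**Figure D3:**
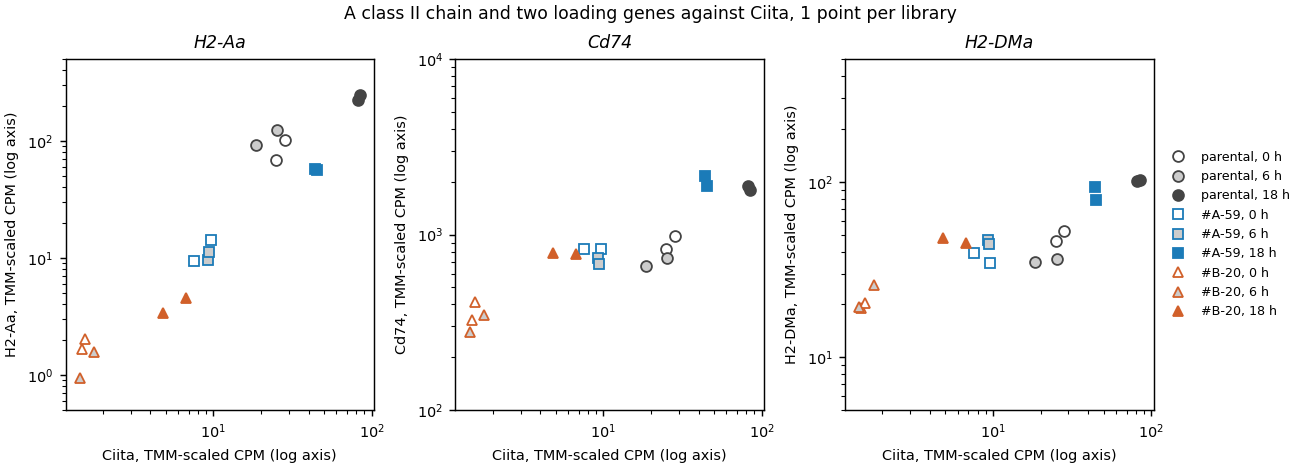
Level of H2-Aa, Cd74 and H2-DMa (y axes, TMM-scaled CPM, log axes) against that of Ciita (x axis, TMM-scaled CPM, log axis), 1 point per library, with the shape and colour for the cells and the filling for the time. H2-Aa spans 0.935 to 246 CPM along Ciita, and Cd74 spans 278 to 2145 CPM over the same libraries.

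Across the 18 libraries, Pearson's r of log2 CPM with Ciita was 0.921 for Ctss, 0.917 for Cd74, 0.904 for H2-DMa and 0.824 for H2-Ob. It was 0.701 for H2-Oa, 0.664 for Ifi30, 0.658 for H2-DMb2 and 0.627 for H2-DMb1. The libraries fall into 3 genotypes and 3 times, which all genes share, so that these are descriptions. They rank Ctss, Cd74, H2-DMa and H2-Ob, the members lowered most in #B-20, above the rest. Ciita itself was lowest in #B-20 at each time, so that this split is not independent of the differences of #B-20. The order of single members did not follow these differences, as Ctss had a higher r than H2-Ob but was lowered less at each time. Values of r without #B-20 were not computed.

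The other genes of the pathway were taken from fixed lists. The list of 13 class II chains and regulators also held Ciita and H2-Aa, which were lower in each clone at each time. Counted with them, #A-59 had 5, 5 and 7 called lower at the 3 times and #B-20 had 6, 5 and 6, with 1 higher at 6 h in each clone. Of all genes 7.33%, 17% and 9.44% were called lower in #A-59 and 10.7%, 12.5% and 12.6% in #B-20. At 6 h 16.6% and 11% of all genes were called higher. The chain genes H2-Ab1, H2-Ea and H2-Eb1 were lower in both clones at all times. H2-Eb1, a β chain gene, had log2 fold changes of -1.38, -1.70 and -0.94 in #A-59 and -2.66, -3.25 and -3.14 in #B-20. H2-Ea was at 38.7 and 58.6 CPM in parental cells at 0 h, 4.94 and 5.23 CPM in #A-59 and 0.201 and 0.806 CPM in #B-20. H2-Ab1 was at 7.85 and 14.9, 0.982 and 1.45, and 0.0669 and 0.0620 CPM, the last being 1 count per library. H2-Eb2 was called lower in both clones at 18 h, at 11 and 13 counts in parental cells, 2 and 1 in #A-59 and 1 in each library of #B-20. Rfx5, a subunit of the factor that binds the X box, differed from parental cells in neither clone, with log2 fold changes of -0.08 to 0.12 and adjusted p-values of 0.413 to 0.996. Rfxank, another subunit of that factor, was chosen after its values were seen. It was lower in #B-20 at 0 h (-0.46, adjusted p = 0.0338) and higher in #A-59 at 6 h (0.44, adjusted p = 0.0172).

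Of 19 further endosomal proteases and genes of invariant chain handling, 15 were tested. In #A-59 8, 7 and 6 were called higher and 2, 3 and 4 lower at 0, 6 and 18 h. Of all genes 8.23%, 16.6% and 7.76% were called higher there and 7.33%, 17% and 9.44% lower. In #B-20 2, 4 and 2 were called higher and 3, 7 and 9 lower. Of all genes 7.08%, 11% and 10.5% were called higher there and 10.7%, 12.5% and 12.6% lower. Lgmn encodes legumain, a protease that cuts after asparagine and can start the cleavage of antigens. It was at 58.8 and 65.7 CPM in parental cells at 0 h, 37.0 and 37.8 CPM in #A-59 and 12 and 16.2 CPM in #B-20, and was lower in both clones at all times, with log2 fold changes of -0.73, -1.17 and -0.89 and of -2.14, -2.81 and -2.42. Ctse, which encodes the aspartic protease cathepsin E, was higher at all times, by 1.36, 1.48 and 1.10 in #A-59 and by 2.02, 2.07 and 1.6 in #B-20. It was at 5.03 and 5.63 CPM in parental cells at 0 h and at 19.4 and 23.8 CPM in #B-20. Cd82, which encodes a tetraspanin that associates with DM, was higher in both clones at all times and at 6 h by 1.30 ± 0.11 (SE, adjusted p = 2.69e-08) in #A-59 and 1.09 ± 0.11 (adjusted p = 3.58e-07) in #B-20. Sppl2a, the intramembrane protease of the last CD74 fragment, was higher in #A-59 by 0.53, 0.54 and 0.37 and in #B-20 at 6 h by 0.53 (adjusted p = 0.000585). Ctsl, the cathepsin that trims the invariant chain in thymic epithelium, did not pass the filter, with 0 to 14 counts per library.

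After 6 h of BCR stimulation 6 of 8 members had fallen in parental cells and 1 had risen, against 7.14% of all genes called lower and 5.63% called higher. The log2 fold change against 0 h was -0.81 ± 0.20 (SE, adjusted p = 0.0108) for H2-DMb2, -0.65 ± 0.09 (adjusted p = 4.54e-05) for Ifi30 and -0.64 ± 0.16 (adjusted p = 0.00981) for H2-Oa. It was -0.63 for H2-DMb1 (adjusted p = 0.0496), -0.46 for H2-DMa (adjusted p = 0.0124) and -0.38 for Cd74 (adjusted p = 0.0411). H2-Ob, at -0.47, did not pass (adjusted p = 0.0651), but did with DESeq2 (0.0487) and without the filter on low counts (0.0057). Ctss rose by 0.31 ± 0.08 (SE, adjusted p = 0.0147). Apart from that of Ifi30, each of these calls was lost without 1 or another of the parental libraries at 0 or 6 h. Replicate 2 at 0 h and replicate 1 at 6 h were among them for all 6 of these members. The call of Ctss was also lost without the filter (adjusted p = 0.0585), that of H2-DMb2 in the fit of the compared libraries only (0.0632), and that of H2-DMb1 with the GC correction (0.0558) and with at least 10 counts in every library (0.0515). For H2-DMb2, whose parental libraries at 0 h differed most (31.6 and 47.1 CPM), the log2 fold change ranged from -1.08 to -0.50 over the fits without 1 library.

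In the clones few members were called at 6 h. In #A-59 Ctss rose by 0.31 (adjusted p = 0.0171), where 5.99% of all genes were called higher, and no member fell. The call of Ctss was lost without either library of #A-59 at 0 h, without the filter (adjusted p = 0.0613) and in the fit of the compared libraries only (0.252). Ifi30 of #A-59, which had fallen in parental cells, had a log2 fold change of -0.01 with a 95% interval of -0.21 to 0.19. In #B-20 Ifi30 fell, by 0.52 ± 0.09 on the log2 scale (SE, adjusted p = 0.00196), where 1.8% of all genes were called lower, and the other 7 members did not pass, although Ctss did with the GC correction (0.28, adjusted p = 0.0286). The fall was not called without #B-20 replicate 2 at 0 h.

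At 18 h all 8 members were called higher than before stimulation in each clone, and 7 of 8 in parental cells. Of all genes 21.4%, 18.1% and 22.8% were called higher in #A-59, #B-20 and parental cells. The median log2 fold change of the members was 1.22, 1.06 and 1.04, against 0.02, 0.03 and 0.04 over all genes. H2-Ob rose most, by 1.82 ± 0.16 (SE, adjusted p = 6.03e-08) in parental cells, 1.98 (adjusted p = 3.9e-08) in #A-59 and 1.86 (adjusted p = 6.72e-07) in #B-20. H2-DMb1 rose by 1.39, 1.46 and 1.46, H2-DMb2 by 1.16, 1.21 and 1.03, and H2-DMa by 1.05, 1.22 and 1.24. Cd74 rose by 1.03, 1.28 and 1.09 and H2-Oa by 0.91, 0.79 and 0.99. Ctss, with 0.55, 0.57 and 0.33, and Ifi30 rose least, the latter by 0.47 in #A-59 and 0.35 in #B-20, with 0.16 in parental cells (adjusted p = 0.147). In #B-20 the rise of Ctss was lost without replicate 2 and that of Ifi30 without replicate 1 at 0 h. Ciita rose as well in each genotype, from 24.9 and 28.3 to 81.7 and 84.6 CPM in parental cells and from 1.47 and 1.55 to 4.83 and 6.72 CPM in #B-20.

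**Figure D4:**
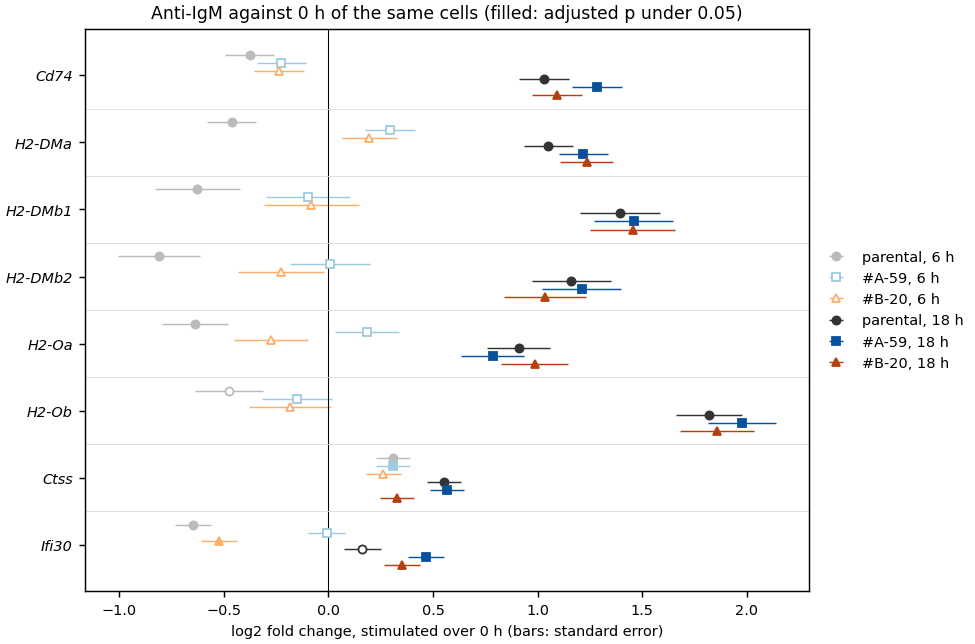
Log2 fold change after 6 h (pale) or 18 h (dark) of anti-IgM over 0 h of the same cells (x axis) for the 8 members (y axis) in parental cells, #A-59 and #B-20, with filled symbols for an adjusted p under 0.05 and bars for the standard error. At 6 h the parental symbols of 7 members lie left of 0, at -0.81 to -0.38, and at 18 h the 3 genotypes lie close to each other, for example at 1.82, 1.98 and 1.86 for H2-Ob.

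Whether the responses themselves differed was tested by interaction. At 6 h the response of #A-59 differed from the parental response for 2 of 8 members, where 1.83% of all genes were called. They were H2-DMa, by 0.76 ± 0.17 (SE, adjusted p = 0.0224), and Ifi30, by 0.64 ± 0.12 (adjusted p = 0.00997). The interaction was 0.82 for H2-Oa (adjusted p = 0.0613), 0.82 for H2-DMb2 (adjusted p = 0.16) and 0.53 for H2-DMb1 (adjusted p = 0.426), and these did not pass. That of H2-Oa passed with DESeq2 (adjusted p = 0.0354) and without the filter on low counts (0.0229), and that of H2-DMb2 without the filter (0.000352). The call of H2-DMa was lost without either parental library at 6 h, parental replicate 2 at 0 h, #A-59 replicate 2 at 0 h or #A-59 replicate 1 at 6 h, with values of 0.66 to 0.85. That of Ifi30 was lost without parental replicate 1 at 0 h, parental replicate 2 at 6 h or #A-59 replicate 2 at 0 h, with values of 0.52 to 0.74, and in the fit of the compared libraries only (adjusted p = 0.0733). For #B-20 no member passed at 6 h, where 0.568% of all genes were called, the lowest adjusted p being 0.123 (H2-DMa, 0.66) and 1 member having an unadjusted p under 0.05. H2-DMa passed there without the filter (adjusted p = 0.0246). At 18 h no member passed for #A-59 or #B-20, where 0.0979% and 0.712% of all genes were called, and 1 and 0 members had an unadjusted p under 0.05. The interactions at 18 h were -0.12 to 0.31 for #A-59 and -0.22 to 0.19 for #B-20, with 95% intervals that reach from -0.74 to 0.69. Whether the 2 clones differed in their responses was not tested.

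For each member the 3 genes with the most similar pattern were sought by Pearson's r of log2 CPM over the 18 libraries, among 12480 other genes with a mean of at least 1 CPM. Cd74 was closest to Pnpla7 (r = 0.984), Cbx7 (0.977) and Itgb7 (0.972), and H2-DMa to Itgb7 (0.972), Pde4c (0.971) and Mdga1 (0.969). H2-DMb1 was closest to Gm10676, Ccndbp1 and AB124611 (0.979 each), and H2-DMb2 to AB124611 (0.991), Arhgef18 (0.976) and Spib (0.973). H2-Oa was closest to AB124611 (0.976), H2-DMb2 (0.972) and Ech1 (0.970), the only case in which another member was among the 3. H2-Ob was closest to Rere (0.982), Cnn2 (0.978) and Plekho2 (0.972), Ctss to Rgs3 (0.978), Fstl1 (0.958) and Grm4 (0.954), and Ifi30 to Dbnl (0.957), Nrm (0.953) and Tyrobp (0.953). Among the members themselves the lowest r was 0.492, between Ctss and H2-DMb1. All these values share the 18 libraries and their groups.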

How the data were processed

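Gene counts of 18 RNA sequencing libraries were analysed, each placed in a group by its GEO label. The deposited values are raw counts per Ensembl gene that the authors made from single-end reads of unstranded mRNA libraries with STAR and featureCounts on GRCm38. The submitters' processing notes name STAR 2.5, featureCounts 1.5.0-p1 and bcl2fastq 2.20.0.422, and the counting options are not given in the sources used here. WEHI-231 derives from a BALB/c and NZB cross, so that H2 reads were aligned to sequence of another strain, in all groups alike.

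Low counts were removed with filterByExpr of edgeR 4.0.16 in R 4.3.3 (15318 genes stayed), and the libraries were scaled by TMM and fitted with 1 mean per group over all 18 libraries, with robust dispersions. SEs were derived from the F statistic, and 95% intervals used 9 degrees of freedom. Comparisons were tested by quasi-likelihood with Benjamini-Hochberg adjustment over all genes. The fit was tested on simulated data. Floors of 3 counts cover counting error only. Alternatives were DESeq2 1.42.0, its size factors, no filter, at least 10 counts in every library, the compared libraries only, the replicate number as block, a loess GC correction (span 0.5, GC known for 99.2% of genes), each library left out and, after seeing the data, summed counts of H2-DMb1 and H2-DMb2.

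Coordinates are of RefSeq on GRCm38. GENCODE vM39 gave symbols (93.2% of identifiers matched), lengths, GC content and shared 50-base words. Named besides the members, Ciita, H2-Aa and Tfeb are list genes past an adjusted p under 0.01 and a log2 fold change beyond 1 of 1 sign in both clones at 1 time or more, Ctsl, Lgmn, Sppl2a, Rfx5 and H2-Ab1 whatever their values, and the 3 most similar genes (prior count 2). Csf1r, Rfxank, Cd5, Cd3e and Trac are named outside these rules. The members and lists were chosen with earlier results of these data known.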

Additional observations from a re-analysis of the deposited data

Results flagged for a closer look

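The 6 h response to anti-IgM of 2 members differed between #A-59 and parental cells by the interaction test. For H2-DMa the log2 fold change was -0.46 in parental cells and 0.30 in #A-59, a difference of 0.76 (edgeR adjusted p = 0.0224), and for Ifi30 it was -0.65 and -0.01, a difference of 0.64 (adjusted p = 0.00997). Each group has n = 2 libraries, so that single libraries far from the rest of their group could not be sought. The counts of both #A-59 libraries at 6 h differed more than those of any parental group, with a chi-square per degree of freedom over genes of 31.3 against 3.44 to 7.36, and its part in these differences was not tested.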

How the results depend on the processing

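Under the alternatives other than leaving out a library, the count of calls stayed at 22 to 26 of 48 against 24 for clones over parental cells, at 30 to 35 of 48 against 32 for stimulation, and at 17 to 23 of 24 against 21 between the clones. The count of differing responses, 2 of 32, was 5 without the filter on low counts (H2-DMa, H2-DMb2, H2-Oa and Ifi30 in #A-59 and H2-DMa in #B-20, all at 6 h) and 1 with the compared libraries only. With 1 library left out, these 4 counts ranged from 21 to 27, 26 to 32, 19 to 21 and 0 to 3. The last was 1 without parental replicate 1 or 2 at 0 h, parental replicate 1 at 6 h or #A-59 replicate 1 at 6 h, and 0 without parental replicate 2 at 6 h or #A-59 replicate 2 at 0 h. A fit that leaves a group with 1 library assumes that it varies like the other groups.

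The replicate numbers were not treated as pairs. Deviations of same-numbered libraries correlated between groups at -0.026 to 0.32 (median 0.078, above 0.1 in 14 of 36 pairs of groups), although the mean correlation with the other groups was above 0 for all 9 groups. The replicate block gave 26, 33, 22 and 3 calls for clones, stimulation, clone against clone and responses. Calls gained were those of H2-DMb2 in #B-20 at 0 h (adjusted p = 0.0375), H2-DMb1 in #A-59 at 6 h (0.0256), H2-Ob in parental cells after 6 h (0.0493), H2-Oa in the 6 h response of #A-59 (0.0402) and H2-Oa between the clones at 18 h (0.0484). With the GC correction as well, the 6 h response of H2-DMa in #B-20 passed (0.0304).

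The sign changed for differences near 0 that were not called. With the GC correction, alone and with the block, H2-DMb1 in untreated #A-59 over parental cells went from 0.01 to -0.0045 and -7e-04, and Cd74 at 6 h from 0.03 to -0.0921 and -0.0909. H2-DMb2 in #A-59 at 6 h over 0 h went from 0.01 to -0.0768 and -0.0791, to -0.0042 without the filter and to -0.0113 with H2-DMb1 counts added. Without 1 library, values in untreated #A-59 over parental cells ranged from -0.2457 to 0.0099 for Cd74, -0.2021 to 0.2532 for H2-DMb1, -0.1703 to 0.407 for H2-DMb2 and -0.1075 to 0.1757 for H2-Oa. At 6 h they ranged from -0.0516 to 0.0969 for Cd74 and -0.2199 to 0.1167 for H2-Ob, and at 18 h from -0.0739 to 0.2231 for H2-DMb1, -0.0022 to 0.2826 for H2-DMb2 and -0.229 to 0.0444 for H2-Oa. In #B-20 over parental cells at 6 h they ranged from -0.1244 to 0.2426 for H2-DMb1 and -0.1252 to 0.2656 for H2-DMb2. For 6 h over 0 h they ranged in #A-59 from -0.2788 to 0.0789 for H2-DMb1, -0.0395 to 0.0436 for H2-DMb2 and -0.1335 to 0.0959 for Ifi30, and in #B-20 from -0.0227 to 0.3743 for H2-DMa, -0.3412 to 0.2263 for H2-DMb1 and -0.4937 to 0.0874 for H2-DMb2. The cause was not tested.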
